A study of Rattus norvegicus with 12 samples.

Results

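Amino acid transporter genes were examined in the liver of obese rats fed an oyster mushroom product: 57 genes of the carrier families Slc1, Slc3, Slc6, Slc7, Slc36, Slc38 and Slc43, out of 18166 genes measured. A gene was a member when its transcript cluster, the probe group that stands for a gene on the array, was annotated with 1 symbol of these families. The rule uses names and no expression value, but the families were picked with earlier results of these data known. Each member had 1 cluster. By family there were 7 members of Slc1, 2 of Slc3, 15 of Slc6, 15 of Slc7, 4 of Slc36, 11 of Slc38 and 3 of Slc43.

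The PSC group consisted of 6 male obese Zucker rats (Crl:ZUC-Leprfa) given a diet with 5% PSC, the labels' name for the supplement, which was grown by biotechnology on a farm side stream. The control group consisted of 6 male obese Zucker rats given a diet without it, comparable in gross energy and crude nutrients. All rats of both groups were homozygous for the fa allele, a defect of the leptin receptor, and no lean rats were among these samples. Feeding began at an age of 5 to 6 weeks and ended with killing on day 29, with 1 liver sample and 1 Affymetrix Rat Gene 2.0 ST array per rat. The question, as the series title puts it, is what the mushroom product does in the liver. Rats were caged in pairs, cage mates are not named in the labels, and p-values take the rats as independent.

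Hepatocytes take up amino acids from portal blood for protein synthesis, gluconeogenesis and the urea cycle, and release others. System A and system N carriers of the Slc38 family move alanine and glutamine along with sodium, Slc7a2 brings in arginine and other cationic amino acids, and pericentral hepatocytes take up glutamate. Exchangers of the Slc7 family work as pairs of a light chain with a heavy chain of the Slc3 family. Many of these genes are also read by the transcription factor ATF4 when amino acids run short.

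Median log2 signal per array was 4.71 to 4.85, pairs of arrays had correlations of 0.987 to 0.995 across genes, and the number of arrays limits the precision. Hepatocyte markers such as Ttr, transthyretin, were bright in every rat, with a list mean of 11.88 to 11.94 on PSC arrays and 11.83 to 11.90 on control arrays (log2 signal, 6 of 9 fixed markers measured). Markers of some other cell types differed between the diets. Of all 18166 genes 130 rose and 343 fell at an adjusted p below 0.05 (limma, n = 6 per diet). Of 6 endothelial, 9 neutrophil and 4 red cell markers measured none passed, with medians of -0.03, -0.02 and -0.17 (log2, PSC minus control). Of 13 measured stellate cell and fibrosis markers 6 fell (Col1a2, Col3a1, Dcn, Mmp2, Rgs5 and Tagln), and the list mean was 6.33 to 6.74 on PSC arrays and 6.73 to 7.03 on control arrays. Of 14 measured Kupffer cell and macrophage markers 1 rose (Cd163), with list means of 7.21 to 7.57 against 6.47 to 7.32 in controls, and of 14 lymphocyte markers 1 rose (Nkg7), with 4.34 to 4.49 against 4.13 to 4.28. Only 1 of the 14 lymphocyte markers reached the median signal of all genes. The median difference of these markers, 0.21, was 0.16 after another quantile normalization and 0.15 with cyclic loess. Of 6 bile duct markers 1 fell (Spp1), 3 had values above 0 and 3 below (Krt19 had 0.27, adjusted p = 0.102), and the list mean was 4.35 to 4.55 on PSC arrays and 4.50 to 4.63 on control arrays. The part of these shifts in the values below was not tested, and in pieces of whole liver fewer cells of a type and less RNA per cell cannot be told apart.

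No amino acid transporter gene passed the test between the diets. Of the 57 members 0 had an adjusted p below 0.05 (limma, Benjamini-Hochberg over all genes, n = 6 per diet), against 2.60% of all genes tested. At an unadjusted p below 0.05 there were 14 members, 24.6% of them, beside 19.1% of all genes. Of these 14, 7 had higher values in PSC-fed rats (12.3% of members, beside 9.02% of all genes) and 7 had lower values (12.3%, beside 10.1%). An exact permutation test of each member over all 924 assignments of the arrays put 14 members below 0.05 before adjustment, 10 of them shared with limma. It used the same arrays and was not run over all genes, so no share of all genes stands beside its count. Members whose PSC and control arrays did not overlap numbered 0, beside 2.19% of all genes.

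The largest difference of a member was a log2 fold change (PSC minus control) of 0.57, for Slc1a2. The median absolute log2 fold change was 0.122 over members and 0.09 over all genes, and the median SD between rats of a diet was 0.151 and 0.142. For 50 of the 57 members the 95% interval of the difference lay within 0.5 of 0 on the log2 scale, a fold of 1.41, and for none did it reach 1. The intervals of Slc1a2, Slc1a7, Slc43a1, Slc43a2, Slc6a6, Slc6a8 and Slc6a9 reached past 0.5.

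**Figure D1:**
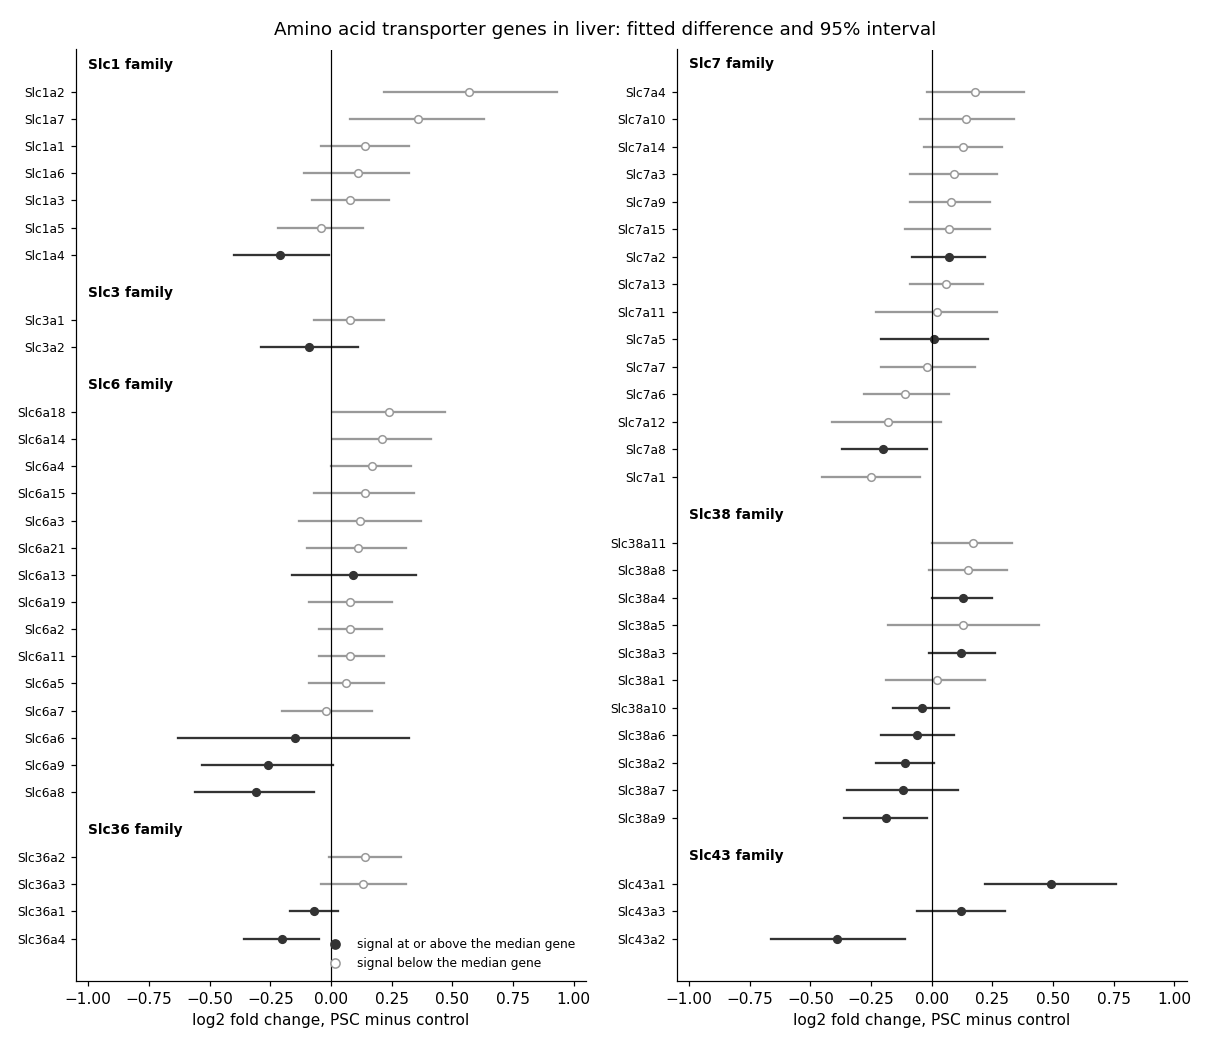
Fitted log2 fold change, PSC minus control, of the 57 transporter genes by family, with 95% intervals as horizontal lines. Filled points are genes with a mean signal at or above that of the median gene and open points are dimmer genes; Slc1a2 at 0.57 and Slc43a1 at 0.49 lie farthest to the right, Slc43a2 at -0.39 farthest to the left.

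The Slc43 family, which holds facilitated carriers for branched-chain and other neutral amino acids, had the smallest p and values in opposite directions. Slc43a1 (transcript cluster 17763475) encodes LAT3, a carrier that lets branched-chain amino acids and phenylalanine pass without an ion gradient. Its log2 signal ran from 6.99 over a median of 7.30 to 7.53 on PSC arrays and from 6.43 over 6.78 to 7.11 on control arrays. All 6 PSC arrays lay above the control median and 4 lay above every control. The log2 fold change was 0.49 (SE 0.13, 95% interval 0.22 to 0.76), a fold of 1.40, with an adjusted p of 0.053. Slc43a1 passed after another quantile normalization (adjusted p = 0.0397), with cyclic loess (0.0393), with a variance prior that follows signal (0.044), among brighter genes only (0.0302), without PSC replicate 4 (0.032) and without control replicate 2 (0.0326). Over all alternatives its adjusted p was 0.0302 to 0.124.

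Slc43a2 (cluster 17648590) encodes LAT4, a close relative of LAT3 with similar substrates. Its log2 signal ran from 6.28 over a median of 6.55 to 7.06 on PSC arrays and from 6.70 over 6.97 to 7.25 on control arrays. PSC replicate 4 held the highest PSC value, and the other 5 PSC arrays lay below every control. The log2 fold change was -0.39 (SE 0.13, adjusted p = 0.116), and without PSC replicate 4 it was -0.48 (adjusted p = 0.0267). Leaving out that array also raised the number of all genes that passed, from 473 to 735. Over all alternatives the adjusted p of Slc43a2 was 0.0267 to 0.222. Slc43a3, which carries purine nucleobases in place of amino acids, had 9.70 ± 0.17 in PSC-fed rats and 9.57 ± 0.14 in controls (mean log2 signal ± SD, n = 6).

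Among the glutamate carriers of the Slc1 family all 5 had values above 0, with 0 past the threshold and a median of 0.14, beside 0.01 over all genes tested. All 5 were among the dimmer genes of the array, those with a mean log2 signal under 5.33, of which 69.3% had values above 0, with a median of 0.06. Without PSC replicates 2 and 5, 4 of the 5 were above 0. After another quantile normalization this median was 0.09 and with cyclic loess 0.08. Slc1a2 (cluster 17764304) encodes GLT-1, the glutamate carrier of astrocytes and of pericentral hepatocytes. Its log2 signal ran from 4.80 over a median of 5.55 to 6.01 on PSC arrays and from 4.62 over 4.89 to 5.37 on control arrays. Here 5 PSC arrays lay above every control, whereas PSC replicate 2, at 4.80, lay below the control median. The log2 fold change of 0.57 (SE 0.17, 95% interval 0.22 to 0.93), a fold of 1.49, had an adjusted p of 0.0796. Without PSC replicate 2 it was 0.71 (SE 0.13) with an adjusted p of 0.0154, and without PSC replicate 4, the highest array, it was 0.47 (adjusted p = 0.109). Over all alternatives the adjusted p of Slc1a2 was 0.0154 to 0.172.

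Slc1a7, a glutamate carrier best known from the retina, had 4.95 ± 0.31 in PSC-fed rats and 4.59 ± 0.18 in controls, a difference of 0.36 on that scale (SE 0.13, adjusted p = 0.149). Of its PSC arrays 4 lay above every control. Slc1a1, the carrier EAAC1 for glutamate and cysteine, had 4.60 ± 0.13 and 4.45 ± 0.17 in the PSC and control groups (difference 0.14, 95% interval -0.04 to 0.32). Slc1a3 and Slc1a6, glutamate carriers of glia and Purkinje cells, had values of 0.08 and 0.11.

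The pericentral hepatocyte markers that go with Slc1a2 in the liver lobule did not pass the test (0 of 7 measured), and had values of -0.35 to 0.85 with a median of 0.08 and 2 of 7 below 0. Their list mean was 6.50 to 7.28 on PSC arrays and 6.55 to 7.00 on control arrays. The highest of these values was that of Oat, ornithine aminotransferase of pericentral cells, which had 9.08 ± 0.66 in PSC-fed rats and 8.24 ± 0.36 in controls (log2 fold change 0.85, adjusted p = 0.0884). Periportal markers had 0 of 9 past the threshold and list means of 9.81 to 9.99 against 9.53 to 9.81 in controls. Their values were -0.16 to 0.59, with a median of 0.17 and 2 of 9 below 0. The part of a shift between lobule zones in the values of Slc1a2 was not tested.

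The neutral exchangers of the Slc1 family had values on the other side of 0. Slc1a4, the alanine, serine and cysteine exchanger ASCT1, had 5.85 ± 0.19 in PSC-fed rats and 6.06 ± 0.15 in controls (difference -0.21, SE 0.09, adjusted p = 0.234). PSC replicate 2, at 6.20, was the highest PSC array, and the other 5 PSC arrays lay below every control. Slc1a5, the glutamine exchanger ASCT2, had -0.04 (95% interval -0.22 to 0.13).

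**Figure D2:**
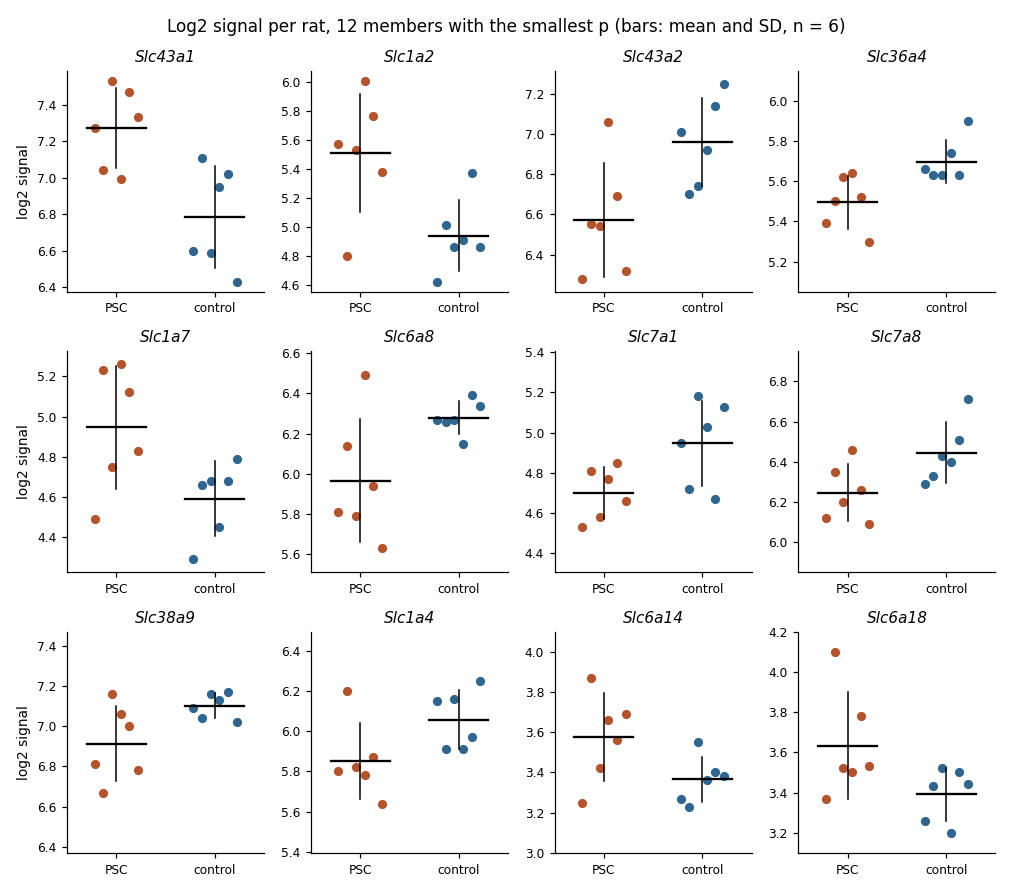
Log2 signal of the 12 transporter genes with the smallest p, 1 point per rat (PSC left, control right), with mean and SD (n = 6). For Slc43a2, Slc6a8, Slc36a4 and Slc1a4 the plot shows 5 PSC rats below every control and 1 that is not, whereas for Slc1a2 5 PSC rats lie above every control and 1 does not.

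In the Slc6 family, carriers of neurotransmitters, osmolytes and creatine driven by sodium and chloride, 0 of 15 members passed, with a median of 0.08 that was 0.02 after another quantile normalization. Slc6a8 (cluster 17875061), the creatine carrier, ran from 5.63 over a median of 5.88 to 6.49 on PSC arrays and from 6.15 over 6.27 to 6.39 on control arrays. PSC replicate 4 lay above every control and the other 5 PSC arrays lay below every control. The log2 fold change was -0.31 (SE 0.12, adjusted p = 0.156), and without PSC replicate 4 it was -0.42 (SE 0.08, adjusted p = 0.016). That array was the one that went against the difference, and without it 735 of all genes passed, beside 473 with all arrays. Over all alternatives the adjusted p of Slc6a8 was 0.016 to 0.271.

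Slc6a9, the glycine carrier GlyT1, had 9.46 ± 0.32 in PSC-fed rats and 9.72 ± 0.15 in controls. Of its PSC arrays 3 lay below every control, the groups overlapped, and the difference of -0.26 had a 95% interval of -0.53 to 0.01 (adjusted p = 0.288). Slc6a13, the liver carrier GAT2 for GABA and taurine, had 9.57 ± 0.25 in PSC-fed rats and 9.48 ± 0.22 in controls. The taurine carrier Slc6a6 varied more between rats than any other member. It ran from 7.04 to 7.89 on PSC arrays and from 6.63 to 8.19 on control arrays, and its SD within a diet, 0.458, exceeded that of 99.4% of all genes. Its difference of -0.15 had a 95% interval of -0.63 to 0.32, so that a change of moderate size was not detectable.

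The other members of Slc6 were dim on these arrays. Slc6a14 and Slc6a18, neutral amino acid carriers of lung, gut and kidney epithelia, had 0.21 and 0.24 (adjusted p = 0.238 and 0.242). For Slc6a18 PSC replicate 2, at 4.10, was the highest array, and its value without that array was lower, at 0.15. Serotonin, noradrenaline and dopamine carriers (Slc6a4, Slc6a2 and Slc6a3) had 0.17, 0.08 and 0.12. Slc6a4 had the lowest exact permutation p of the 57 members, 0.00866 before adjustment, with 5 PSC arrays above every control, and an adjusted p of 0.266 in limma. Its highest value, 4.99, was on PSC replicate 2. The median of the 3 carriers, 0.12, was 0.06 after another quantile normalization and 0.06 without PSC replicate 2.

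In the Slc7 family 0 of 15 members passed, with values between -0.25 and 0.18 and a median of 0.06. Of the 5 cationic carriers 4 had values above 0 (Slc7a2 0.07, Slc7a3 0.09, Slc7a4 0.18 and Slc7a14 0.13) and Slc7a1 had one below 0. Only Slc7a2 was a brighter gene, and 69.3% of all dimmer genes had values above 0. The median of the 5 carriers, 0.09, was 0.05 after another quantile normalization. Slc7a1, the arginine carrier CAT1 found in most tissues, ran from 4.53 over a median of 4.72 to 4.85 on PSC arrays and from 4.67 over 4.99 to 5.18 on control arrays. All 6 PSC arrays lay below the control median and 3 below every control. The difference was -0.25 (SE 0.09, adjusted p = 0.17). Slc7a2, which encodes the liver arginine carrier CAT2, had 10.82 ± 0.09 in PSC-fed rats and 10.75 ± 0.14 in controls, and the 95% interval of its difference was -0.08 to 0.22.

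Light chains of the paired exchangers had differences of -0.20 to 0.14 with a median of 0.01, and heavy chains had -0.09 and 0.08. Slc3a2, the heavy chain CD98 that carries most light chains to the cell surface, ran from 8.61 over 8.95 to 9.16 on PSC arrays and from 8.87 over 8.94 to 9.25 on control arrays (difference -0.09, 95% interval -0.29 to 0.11). Its partner Slc7a5, which encodes LAT1 for large neutral amino acids, had 5.69 ± 0.21 in PSC-fed rats and 5.68 ± 0.18 in controls (95% interval -0.21 to 0.23). Slc7a8, the related light chain LAT2, had 6.25 ± 0.14 and 6.44 ± 0.15 in the PSC and control groups (difference -0.20, SE 0.08, adjusted p = 0.205), with 4 PSC arrays below every control. Slc7a7, the light chain y+LAT1 of macrophages and epithelia, had -0.02 (95% interval -0.21 to 0.18).

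Slc7a11, the cystine and glutamate exchanger xCT that supplies cysteine for glutathione, was dim, with 2.56 ± 0.22 in PSC-fed rats and 2.54 ± 0.23 in controls. The heavy chain Slc3a1 and its kidney partner Slc7a9, which together take up cystine and dibasic amino acids, had 0.08 each. Slc7a10, a carrier of small neutral amino acids, had 0.14. No detection calls accompany the values, so how much of such low signals is transcript was not tested.

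Slc36 carriers move amino acids, some of the carriers together with protons and in part out of lysosomes. Slc36a4 ran from 5.30 over a median of 5.51 to 5.64 on PSC arrays and from 5.63 over 5.65 to 5.90 on control arrays. Of the PSC arrays 5 lay below every control, and PSC replicate 4 lay just within the control range at 5.64. The difference was -0.20 (SE 0.07, adjusted p = 0.142). Slc36a1, the lysosomal carrier PAT1, had the smallest spread of all members, with 7.07 ± 0.03 in PSC-fed rats and 7.14 ± 0.04 in controls. It had an exact permutation p of 0.0108 before adjustment, against 0.159 in limma, which draws a small spread toward that of the other genes, and an adjusted p of 0.44. The difference of Slc36a1, -0.07, was -0.02 after another quantile normalization and -0.02 with cyclic loess.

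The Slc38 family includes the main sodium-coupled carriers for alanine and glutamine in hepatocytes, and 0 of its 11 members passed (median 0.02). Slc38a3, the system N glutamine carrier SNAT3, ran from 11.64 over a median of 11.85 to 11.93 on PSC arrays and from 11.61 over 11.71 to 11.83 on control arrays. Slc38a4, the system A carrier SNAT4 of liver, ran from 11.55 over 11.69 to 11.80 on PSC arrays and from 11.48 over 11.57 to 11.67 on control arrays. In these genes 4 and 3 PSC arrays lay above every control, and the differences were 0.12 (SE 0.06, adjusted p = 0.305) and 0.13 (SE 0.06, adjusted p = 0.25).

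Slc38a2, the system A carrier SNAT2 that responds to amino acid supply, had 8.58 ± 0.08 in PSC-fed rats and 8.69 ± 0.07 in controls (difference -0.11, SE 0.06, adjusted p = 0.3). The 95% intervals of these liver carriers were narrow, from -0.01 to 0.26 for Slc38a3, 0.00 to 0.25 for Slc38a4 and -0.23 to 0.01 for Slc38a2. Slc38a9, which reports lysosomal arginine to the growth kinase mTORC1, had 6.91 ± 0.19 and 7.10 ± 0.06 in the PSC and control groups (difference -0.19, SE 0.08, adjusted p = 0.217). Slc38a7, a lysosomal glutamine carrier, and Slc38a1, the system A carrier SNAT1, had -0.12 and 0.02, and the value of Slc38a1 changed sign after another normalization.

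**Figure D3:**
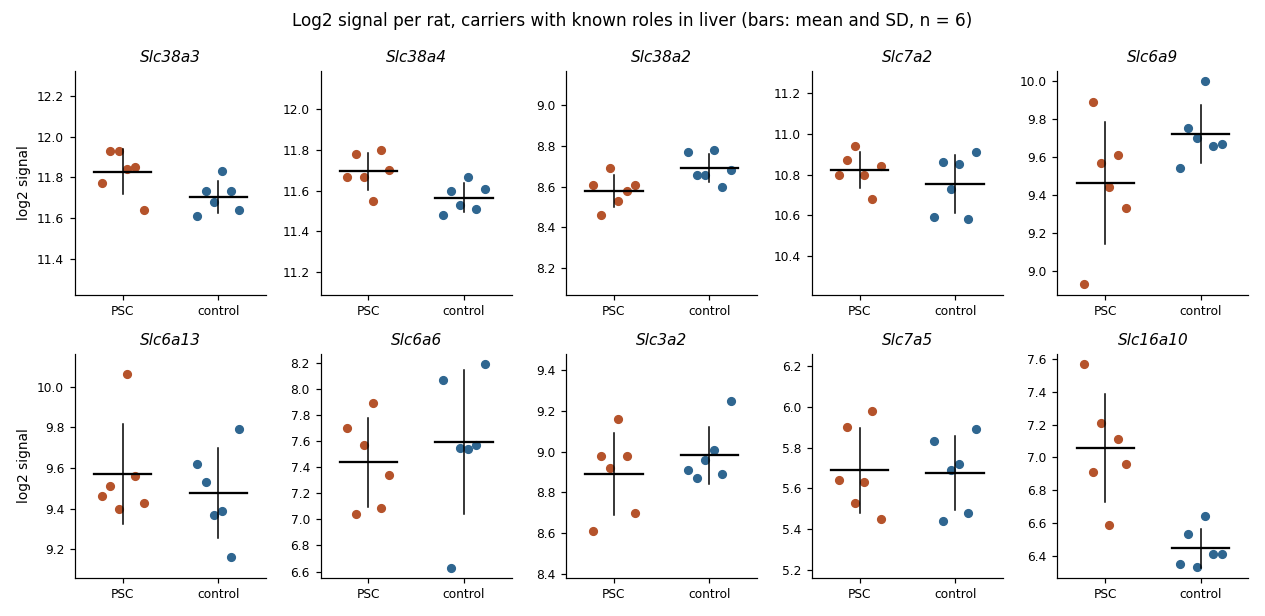
Log2 signal of 9 transporter genes with known roles in liver and of Slc16a10, a carrier outside the families, 1 point per rat (PSC left, control right), with mean and SD (n = 6). Slc16a10 is the gene of this plot that passed the test, with 5 PSC rats above every control. Its PSC replicate 4 lies within the control range, so its groups overlap, as do those of the other 9.

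Among 22 other measured carriers of amino acids, peptides and vesicular transmitters 1 rose and 0 fell, beside 2.60% of all genes that passed in either direction. This was Slc16a10 (cluster 17759134), which encodes TAT1, a carrier of phenylalanine, tyrosine and tryptophan that works in hepatocytes without an ion gradient. It ran from 6.59 to 7.57 on PSC arrays and from 6.33 to 6.64 on control arrays. PSC replicate 4 held the lowest PSC value, and the other 5 PSC arrays lay above every control. The log2 fold change was 0.61 (SE 0.13, adjusted p = 0.0238), a fold of 1.53. The call was lost without PSC replicate 5 (adjusted p = 0.0507), control replicate 1 (0.0625) or control replicate 6 (0.0507), and the value then lay between 0.59 and 0.61.

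No member known as an ATF4 target passed. Of the 9 genes (Slc7a11, Slc7a5, Slc3a2, Slc7a1, Slc7a3, Slc38a2, Slc1a4, Slc1a5 and Slc6a9) 0 passed, 6 had values below 0 and 3 above, and the median was -0.09. Of all 18166 genes 8307 had values below 0. Among the 9 genes 5 were brighter, and of all 9083 brighter genes 5552 had values below 0, with a median of -0.03. After another quantile normalization the median of the 9 was -0.08. At an unadjusted p below 0.05, 2 of the 9 were lower (Slc7a1 and Slc1a4), beside 10.1% of all genes, and the list as a whole was not tested. Of 25 measured genes of the amino acid response outside the families, 22 of them brighter genes, 0 passed, with a median of -0.07. Of these 25, 9 had values above 0 and 16 below. At an unadjusted p below 0.05 in limma 5 were higher and 2 lower, beside 9.02% and 10.1% of all genes. Fgf21, a hormone of the fasted liver, had 0.49 (adjusted p = 0.0515), and Aldh18a1, an enzyme of proline synthesis, had -0.36 (adjusted p = 0.0737). Genes of amino acid sensing by mTORC1 (0 of 26, median 0.02), of glutathione synthesis and NRF2 targets (0 of 11, median -0.08), of taurine, betaine, creatine and glycine metabolism (0 of 16, median 0.02) and of glutamine and arginine metabolism (0 of 11, median 0.05) did not pass either.

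Since ATF4 binds a composite element with the letters TGATGNAA, the promoters of the members were searched for it on both strands, from 250 bases before to 50 bases after each gene's start (RefSeq, GRCr8). Of 43 members with a promoter entry 3 held it, or 6.98%, beside 3.98% of all 33469 entries. Capitals mark the element in windows of 30 bases on the strand of the gene, at chr12:11664447-11664476 for Slc7a1 (plus strand), chr14:98761779-98761808 for Slc1a4 (minus strand) and chr7:129681525-129681554 for Slc38a1 (minus strand). In Slc1a4 the element reads on the opposite strand.
Slc7a1: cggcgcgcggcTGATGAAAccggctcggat
Slc1a4: cgcctccagcgTTGCATCAtccagccagca
Slc38a1: gggggaaactcTGATGCAAccaaccagtcc
Slc7a1 and Slc1a4, which are also in the ATF4 list, had differences of -0.25 and -0.21, and Slc38a1 had 0.02. No other gene of the ATF4 list was found with the element, and members without a promoter entry could not be searched. Whether the element goes with a difference between the diets was not tested. The match is a description of the letters and shows no binding.

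The sign of a member's difference went with its brightness. All genes were divided at a mean log2 signal of 5.33, the median over genes, into dimmer and brighter ones, a class that depends on the probes as well as on the transcript. Of 36 dimmer members 30, or 83.3%, had values above 0 with a median of 0.10, and of all dimmer genes 69.3% did with a median of 0.06. Of 21 brighter members 7, or 33.3%, had values above 0 with a median of -0.09, beside 38.4% of all brighter genes and a median of -0.03. Over all members the median was 0.08. After another quantile normalization of the deposited values the median was 0.03 for dimmer members, -0.06 for brighter members and 0.01 for all members.

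**Figure D4:**
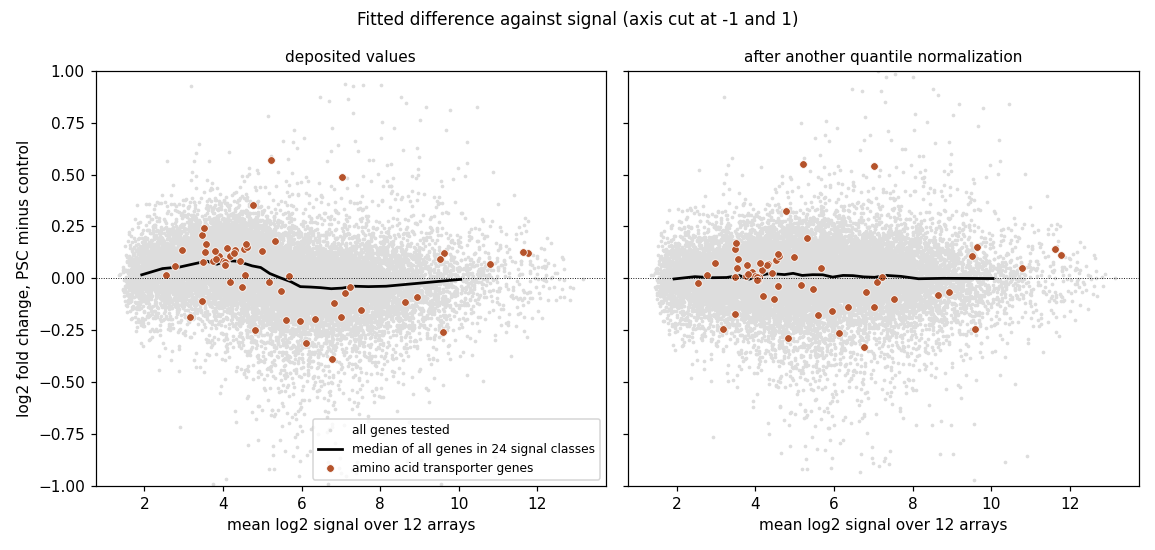
Log2 fold change, PSC minus control, against mean log2 signal for all 18166 genes (grey) and the 57 transporter genes (coloured), from the deposited values (left) and after another quantile normalization (right), with the vertical axis ending at -1 and 1 and the median of all genes in 24 signal classes as a line. On the left the line lies above 0 at low signal, as do 30 of the 36 dimmer members. On the right the line stays near 0 and the median of the dimmer members is 0.03.

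Arrays of the PSC group differed in this. On PSC replicate 2, 31 of the 36 dimmer members lay above their own mean over the 12 arrays, and on PSC replicate 5 there were 30. On the other 4 PSC arrays the number was 12 to 21, and on control arrays it was 5 to 17. PSC replicate 2 held the highest value of all arrays for 15 of the 36 dimmer members, and for 25.8% of all dimmer genes. Without PSC replicates 2 and 5 the median of the dimmer members was 0.04, 23 of 36 were above 0, and the median over all members was 0.02. The family medians without both arrays were 0.08 for Slc1, -0.03 for Slc3, 0.04 for Slc6, -0.00 for Slc7, 0.01 for Slc36, -0.03 for Slc38 and 0.03 for Slc43. With all arrays they were 0.11, -0.01, 0.08, 0.06, 0.03, 0.02 and 0.12 in the same order of families. Without PSC replicate 2 alone the median of Slc38 was higher than with it, at 0.05, and that of the other 6 families was lower.

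**Figure D5:**
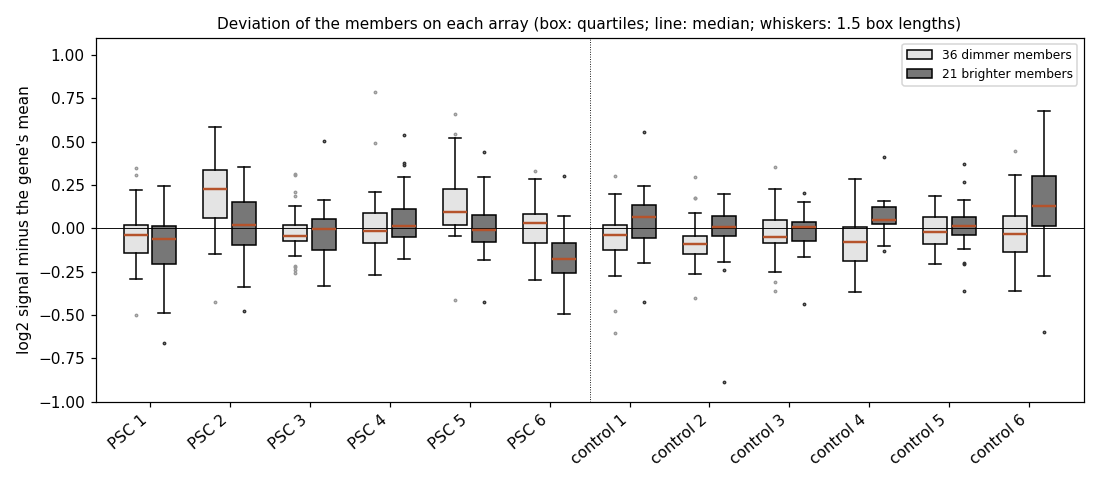
Log2 signal minus the gene's mean over 12 arrays, for the 36 dimmer (light boxes) and 21 brighter members (dark boxes) on each array, PSC arrays left of control arrays, with quartiles, median and whiskers of 1.5 box lengths. The light boxes of PSC replicates 2 and 5 stand above 0, with medians of 0.23 and 0.09, and the dark box of PSC replicate 6 stands lowest, at a median of -0.18.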

How the data were processed

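Liver RNA of 12 rats was hybridised to 1 array each. The authors deposited a log2 signal for each transcript cluster, for which the submitters' processing notes name RMA and Affymetrix Expression Console. Versions, filters and detection calls are not stated there. RMA corrects background, quantile normalizes arrays and summarises probes, which compresses differences of dim genes. The table held 30347 clusters, of which 18511 had 1 gene symbol in the platform annotation, 575 several and 11261 none; 18394 of the single-symbol clusters and all 57 members matched a RefSeq gene of GRCr8 by gene number. A gene was represented by its cluster with the highest mean, which left 18166 genes.

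Groups came from the sample titles. The diets were compared by limma 3.58.1 (R 4.3.3), with two-sided p-values adjusted by Benjamini-Hochberg across the 18166 genes and a threshold of 0.05, and member by member with an exact two-sided permutation test of the difference in means. The fit was tested on simulated data with known changes. Members named with values are those past the threshold, the 12 with the smallest p and 29 measured genes of 30 with known roles in liver or the amino acid response; others were named after their values were seen. Promoter sequences are RefSeq's. The members and lists were chosen with earlier results of these data known. The replicate numbers of the titles were not taken as pairs in the main fit. Deviations of same-numbered arrays from their group means correlated at -0.151 to 0.111, which says nothing of weaker effects. Figures were drawn with matplotlib 3.10.9.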

Additional observations from a re-analysis of the deposited data

Results flagged for a closer look

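In 2 of the 64 sets of 6 values tested, 1 for each named gene and diet, a single rat stood far from the others of its diet, where chance alone gives about 1 in 20. Slc6a13, the GABA and taurine carrier GAT2, was 10.06 in PSC replicate 4, against 9.40 to 9.56 in the other 5 PSC-fed rats (log2 signal). Slc3a2, the heavy chain CD98, was 9.25 in control replicate 6, against 8.87 to 9.01 in the other 5 controls.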

How the results depend on the processing

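Among the transporter genes 0 passed with the deposited values. The count was 1 (Slc43a1) with brighter genes only, another quantile normalization, cyclic loess or a variance prior with trend, 2 (Slc43a1 and Slc1a2) at a threshold of 0.1, and 0 to 3 without any 1 array: Slc1a2 passed without PSC replicate 2, Slc43a1 without control replicate 2, and Slc43a1, Slc43a2 and Slc6a8 without PSC replicate 4. Without PSC replicates 2 and 5, an alternative chosen after seeing the data, 1 (Slc1a2) passed. It stayed 0 with all transcript clusters, median centring, array weights, the mean of a gene's clusters and the replicate number as a block. The median log2 fold change of the members, 0.078, was 0.05 to 0.081 without any 1 array, -0.09 for brighter members only, 0.013 after another quantile normalization, 0.014 with cyclic loess and 0.022 without PSC replicates 2 and 5; the cause was not tested. Over all genes 473 passed, 254 with all transcript clusters, 797 with brighter genes only, 1140 at a threshold of 0.1, 225 without PSC replicates 2 and 5, and 142 (control replicate 1 left out) to 735 (PSC replicate 4 left out) without any 1 array. With the replicate number as a block 94 passed. Since same-numbered arrays did not deviate together and 1 of 6 PSC arrays matched its own number best, this says nothing of weaker effects; Slc16a10 lost its call there (adjusted p = 0.0739) and without PSC replicates 2 and 5 (0.0583). The number of arrays limits what can be seen: the half-width of a member's 95% interval was 0.10 to 0.47 on the log2 scale, with a median of 0.18.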
